A study of Homo sapiens with 12 samples.

Results

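The m6A peaks of control A375 cells were described from the authors' list of peaks for the shCtrl group, in which immunoprecipitated (IP) RNA was compared with input RNA. All 44304 peaks of that list were taken, out of 90343 in both peak lists of the series, and they were joined by gene identifier to the expression of the shCtrl input libraries. A375 is an established human melanoma cell line. The series held 12 libraries from cells that received a lentivirus with a hairpin against ALKBH5 or a control hairpin, and only the 6 control libraries were used here. The labels name these cells shCtrl, and the study's text calls the control Scramble. By the study's methods the cells for RNA-Seq were harvested 48 h after infection, and a time for the libraries used here is not given in the sources used here. Of these libraries, 3 were input and 3 were IP, numbered 1 to 3. Poly(A) RNA was fragmented and precipitated with an m6A antibody from Synaptic Systems, and libraries were made strand-specific with dUTP. The labels do not say whether the libraries came from separate cultures. Expression was deposited as FPKM, a measure of fragments scaled by transcript length and by library size, for 29696 genes, so the read depth of each library is unknown. The peak list gives 1 value per peak for the group, and so the peaks have no replicate values, no test was made and no p-value is given. Shares below carry 95% Wilson intervals that cover counting error only.

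N6-methyladenosine (m6A) is set on nascent mRNA by a methyltransferase complex around METTL3 and METTL14, which prefers an adenosine within a short consensus. It is removed by the demethylases ALKBH5 and FTO and bound by reader proteins of the YTH and IGF2BP families, which act on the stability, export and translation of the transcript. Most sites known from other cells lie near the stop codon, in the 3'UTR and in long internal exons. Antibodies against m6A also bind m6Am, a related mark on an adenosine next to the cap that PCIF1 sets, so a peak at the very start of a transcript can come from either mark, and which of them was present was not tested.

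Because some peaks lay over transcription starts, start windows are shown for highly expressed genes. Each holds 10 bases before the RefSeq start, the start base in capitals and 19 transcribed bases, from the promoter table of RefSeq in GRCh38.p14, 5' to 3' on the strand of the gene. The genes were chosen after their values were seen, by falling expression among genes whose deposited start lay within 50 bp of the RefSeq start. Those under a peak also had a stricter peak and a peak of at most 500 bp over the start, so higher-expressed genes with longer or weaker peaks there are not shown. A stricter peak is one whose deposited fold was 2 or more and whose FDR did not exceed 0.01. The windows of TIMP3, MT2A, TMSB4X and CTSZ start with A and lay under a peak, those of TUBA1B and RPS4X start with A and did not, those of RPL7A, RPS6 and RPSA start with C and did not, and those of RPL41 and RPS10 start with C and did.
TIMP3, chr22:32801695-32801724, plus strand: gcagcggcgcAgagcgggcagcaggcaggc
MT2A, chr16:56608574-56608603, plus strand: gctgcactccAccacgcctcctccaagtcc
TMSB4X, chrX:12975100-12975129, plus strand: cccgcccgacAactcggtggtggccactgc
CTSZ, chr20:59007235-59007264, minus strand: gcaggggcccAaagtgcggggtcggccggg
TUBA1B, chr12:49131376-49131405, minus strand: gccccgccctAgtgcgttacttacctcgac
RPS4X, chrX:72277229-72277258, minus strand: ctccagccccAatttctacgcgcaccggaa
RPL7A, chr9:133348208-133348237, plus strand: attccctttcCtttctctctcctcccgccg
RPS6, chr9:19380217-19380246, minus strand: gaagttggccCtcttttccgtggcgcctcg
RPSA, chr3:39406710-39406739, plus strand: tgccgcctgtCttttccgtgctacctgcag
RPL41, chr12:56116623-56116652, plus strand: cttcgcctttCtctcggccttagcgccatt
RPS10, chr6:34426050-34426079, minus strand: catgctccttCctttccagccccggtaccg

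The input libraries were first set against markers of the cell line. SOX10, the transcription factor of the melanocyte lineage, was at 192, 182 and 179 FPKM in shCtrl inputs 1, 2 and 3, and S100B, a calcium-binding protein of the same lineage, at 31.5, 33.0 and 34.2 FPKM. AXL, a receptor kinase of dedifferentiated melanoma, was at 86.7, 76.4 and 78.2 FPKM. The pigment genes were low: PMEL was at 0.260, 0.285 and 0.166 FPKM, TYRP1 at 0.187, 0.168 and 0.114 FPKM, and TYR was listed at 0 in all 3 libraries. MITF, which drives the pigment programme, was at 0.675, 1.01 and 0.645 FPKM. Of the 10 markers, 9 were listed and 3 reached a mean of 1 FPKM, and their summed level was 312, 294 and 293 FPKM. Keratinocyte markers summed to 10.0, 9.46 and 9.44 FPKM, mostly KRT10. Fibroblast markers summed to 2.28, 2.37 and 2.23 FPKM with LUM the highest, endothelial markers to 2.33, 2.64 and 2.53 FPKM with KDR the highest, and immune markers to 16.7, 17.3 and 14.8 FPKM, nearly all from CD68, a lysosomal membrane protein. In bulk RNA, fewer cells of a type and less RNA per cell cannot be told apart. The libraries summed to 218966, 212760 and 217498 FPKM, and on log2(FPKM + 0.1) they correlated at r = 0.981 to 0.982 across the 10758 genes whose mean reached 1 FPKM, called expressed in what follows.

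Most expressed genes had a listed peak, although 6001 of the listed peaks (13.5%) had an FDR above 0.05. At least 1 peak was listed for 9386 of the 10758 expressed genes, 87.2% (86.6 to 87.9%). Limiting the list to stricter peaks left 8538 genes, or 79.4% (78.6 to 80.1%). Over all 29696 listed genes, silent ones included, the share was 57%. The share followed expression up to a plateau and then fell. Among genes listed at 0 in all 3 inputs, 322 of 2901 had a peak, 11.1% (10.0 to 12.3%). The share was 28.6% (27.7 to 29.5%) above 0 and up to 0.1 FPKM and 67.4% (66.3 to 68.5%) from 0.1 to 1 FPKM. It reached 86.9% (86.0 to 87.8%) from 1 to 5 FPKM and 89.0% (87.9 to 90.0%) from 5 to 20 FPKM. Above that it was 86.1% (84.3 to 87.7%) from 20 to 100 FPKM, 80.1% (75.1 to 84.4%) from 100 to 500 FPKM and 68.2% (53.4 to 80.0%) at 500 FPKM and more, where 30 of 44 genes had a peak.

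The same shape was seen in protein-coding genes alone. Of 9429 expressed coding genes, 8640 had a peak, 91.6% (91.1 to 92.2%). From 1 to 5 FPKM the share in coding genes was 92.6% (91.8 to 93.4%), and at 500 FPKM and more it was 73.7% (58.0 to 85.0%). With stricter peaks these shares were 86.2% (85.1 to 87.2%) and 50% (34.8 to 65.2%), so the decline at the top was steeper. Expressed lncRNA genes carried a peak in 177 of 216 cases, 81.9% (76.3 to 86.5%) below the share of coding genes, and the intervals do not overlap. Pseudogenes with a RefSeq label of transcribed had 70.3% (61.9 to 77.5%), and other pseudogenes 28.4% (23.8 to 33.5%) of 331. Reads of a pseudogene can be shared with its parent gene, and how the authors' counting treated them is not given in the sources used here. Of 19 snoRNA genes 2 had a peak, and of the 12 miRNA and 6 snRNA genes at this level 0 had one, which with poly(A) selection leaves their methylation undescribed.

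**Figure D1:**
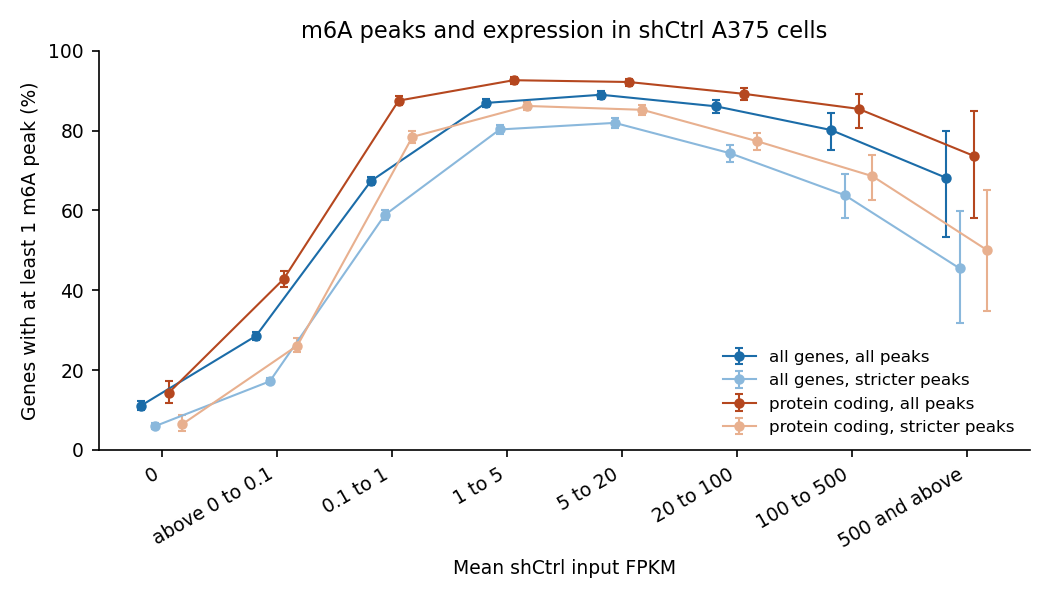
Share of genes with at least 1 m6A peak (percent, y axis) by mean shCtrl input FPKM (x axis), for all genes and for protein-coding genes, with all peaks and with stricter peaks. Points are shares and bars 95% Wilson intervals; the all-peak share of all genes rose from 11.1% at 0 FPKM to 89.0% at 5 to 20 FPKM and was 68.2% at 500 FPKM and more.

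Many transcripts at the top of the expression range had no peak. Of the 100 highest-expressed coding genes 27 had none: 12 encode cytosolic ribosomal proteins, 3 glycolysis enzymes, 1 a translation factor and 1 a respiratory chain subunit, and 10 were in none of the gene lists. The same 100 genes held 27 ribosomal protein genes that did have a peak. GAPDH, the glycolytic enzyme, was the highest-expressed coding gene at 3985, 3611 and 3765 FPKM and had no peak. RPS2, a protein of the small ribosomal subunit, was at 1591, 1445 and 1544 FPKM. FTL, the light chain of the iron store ferritin, was at 1193, 994 and 1076 FPKM. No peak was listed for any of these. RPLP0 of the ribosomal stalk, ENO1 of glycolysis, TUBA1B of the microtubule, RPS12 and RPL27 had none either, nor did EEF1G, an elongation factor subunit at 1366, 1219 and 1317 FPKM. EEF1G differs from these in that 4 peaks listed under another gene lie inside it on its strand.

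Most of the highest-expressed coding genes with a peak had folds below the median of all peaks. TMSB10, an actin-binding thymosin at 2989, 2815 and 2953 FPKM, had 1 peak of 202 bp in its 3'UTR (chr2:84906470-84906671) with a fold enrichment of 3.08. The peak of ACTG1, cytoplasmic actin, had a fold of 1.57 at 1376, 1226 and 1292 FPKM, and that of RPL7A a fold of 1.32 at 1002, 971 and 1033 FPKM; neither gene had a stricter peak. ACTB, the other cytoplasmic actin, was at 1034, 935 and 936 FPKM with 2 peaks, the higher at 2.5 in the 3'UTR. FTH1, the heavy chain of ferritin, had 1 peak in the 5'UTR with a fold of 2.27, at 1218, 1053 and 1097 FPKM, whereas its partner FTL had none. EEF1A1, an elongation factor, went the other way, with 3 stricter peaks of fold 3.63 to 8.94 at 1634, 1747 and 1826 FPKM, though the highest of them lies on the fold steps described below. RPL41 had 3 peaks, and RPL13A, RPL8 and PFN1 had 2 each. The 3 libraries of each of these genes lay close together.

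**Figure D2:**
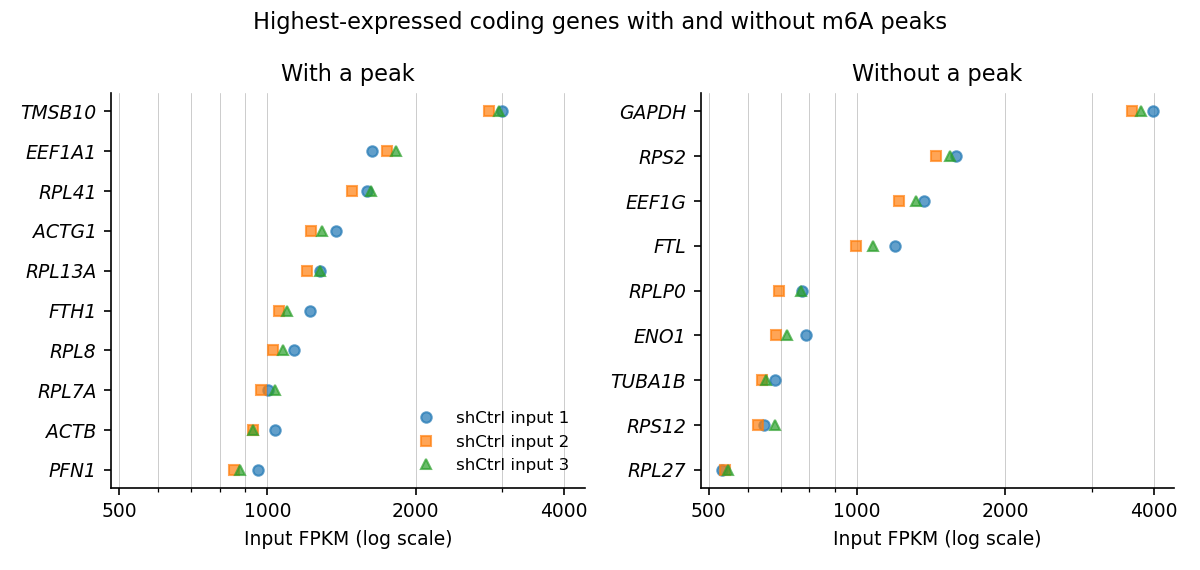
Input FPKM (x axis, log scale) of the highest-expressed coding genes with a peak (left) and without one (right), with 1 symbol for each shCtrl input library. The highest gene without a peak was GAPDH at 3611 to 3985 FPKM, and the highest with one was TMSB10 at 2815 to 2989 FPKM.

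Genes carried few peaks each. Over the 16922 genes with a peak and an expression value the mean was 2.54 peaks and the median 2, and 35.7% of them had a single peak. The mean was 2.85 from 1 to 5 FPKM, 2.70 from 5 to 20, 2.33 from 20 to 100, 2.06 from 100 to 500 and 1.57 at 500 FPKM and more, and 1.38 among genes listed at 0. Long genes had more peaks: the mean over coding genes with a peak was 1.88 for genes of up to 5 kb and 3.46 for those over 100 kb, while their median expression was 13.6 and 3.50 FPKM. Spearman's rho of peak number and gene length was 0.25 across 8640 coding genes, and that of FPKM and gene length was -0.29. These are correlations across genes, which share the same libraries and are not independent replicates. KLC1, a kinesin light chain, and PEX26, a peroxisome import factor, had the most peaks among expressed genes, 21 each. KLC1 was at 4.83, 5.38 and 5.19 FPKM with 18 of its peaks in the 3'UTR class, and PEX26 at 4.30, 4.04 and 4.06 FPKM with 20 there. Of the 21 peaks of KLC1 8 were stricter peaks, against 17 of PEX26. AHNAK2, a giant scaffold protein, had 17 peaks with 13 in coding exons. KMT2A and KMT2D, histone H3 lysine methyltransferases, had 17 and 14, SPG7, a mitochondrial protease, 17, TRIOBP, an actin-binding protein, 15, and the zinc finger homeobox genes ZFHX3 and ZFHX4 14 each. SPG7 stood apart with 9 of its peaks in introns.

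Among genes with a detected transcript, enrichment fell with expression. The median deposited fold over all peaks was 5.25 (95% interval of the median by order statistics 5.12 to 5.35), with quartiles of 2.87 and 8.94. By expression of the gene the median was 7.66 at 0 FPKM, 8.94 above 0 and up to 0.1 FPKM, 6.38 from 0.1 to 1, 4.68 from 1 to 5, 3.84 from 5 to 20, 3.16 from 20 to 100, 2.57 from 100 to 500 and 2.5 at 500 FPKM and more. The median log10 p was -3.08 at 0 FPKM and then moved the other way, from -2.76 above 0 and up to 0.1 FPKM to -251 at 500 FPKM and more. Within expressed genes, Spearman's rho of the gene's median fold and its FPKM was -0.22 across 9386 genes, a description of genes that share the same libraries. Many folds were not free to vary. Of all peaks, 13921 (31.4%) had a fold that equalled, at 3 significant digits, a whole multiple from 1 to 30 of 1.277, while other steps of similar size matched a median of 681 peaks and at most 3056. The fold 7.66 alone was given to 2173 peaks, 58.8% of them with the same log10 p of -1.51. Peaks on these steps made up 73.7% of the peaks of genes above 0 and up to 0.1 FPKM and 8.82% of those from 100 to 500 FPKM. The number of reads under these peaks was not analysed here, and its part in the steps was not tested. Without peaks on the steps the median fold was 3.88.

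The highest folds came from a few peaks far from the rest, of which 99% had a fold under 40.9. CAPNS1, the small subunit of calpain, was at 151, 135 and 136 FPKM and had a 5'UTR peak (chr19:36139953-36141499) with a fold of 4800, whereas its only other peak had 1.50. SNX8, a sorting nexin, had 1810 in the 3'UTR at 15.3, 13.99 and 14.6 FPKM. SENP3, a SUMO protease, had 1750 in the 5'UTR at 37.3, 32.8 and 33.5 FPKM, and ZSWIM9 had 1300 in its single peak at 2.42, 2.29 and 2.25 FPKM. The others among the 10 highest were FBXL19 with 949, PBX2 with 545, DHX36, a helicase, with 543, MORF4L1 with 535, MAML3, a Notch coactivator, with 395 and GNB1, a G protein subunit, with 390. The span of these peaks ran from 1485 bp in PBX2 to 263781 bp in MAML3, introns included.

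Peak spans had a median of 571 bp, with quartiles of 211 and 2456 bp, and 10.9% of peaks spanned more than 10 kb. Spans run from the first to the last base of a peak on the genome and so include introns, and the lengths of exonic blocks were not analysed here. The 3'UTR peaks had a median span of 537 bp, 5'UTR peaks 873 bp, peaks in other coding exons 936 bp and intronic peaks 241 bp. By expression of the gene the median span was 571 bp from 1 to 5 FPKM, 300 bp from 100 to 500 FPKM and 211 bp at 500 FPKM and more. The 3' end of the listed gene lay within 16.7% of peaks (16.4 to 17.1%) and its 5' end within 14.4% (14.1 to 14.7%).

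The annotation of the peaks shifted with expression. In genes listed at 0, 59.4% of 443 peaks (54.7 to 63.8%) lay in exons of noncoding RNAs and 26.0% (22.1 to 30.2%) in 3'UTRs. From 5 to 20 FPKM the noncoding share was 1.80% (1.55 to 2.10%) and the 3'UTR share 58.2% (57.1 to 59.2%). The 5'UTR share rose along the whole range, from 4.97% (3.30 to 7.40%) at 0 FPKM to 20.1% (19.4 to 20.8%) from 1 to 5 FPKM, 26.4% (24.9 to 27.9%) from 20 to 100 FPKM and 34.0% (22.2 to 48.3%) at 500 FPKM and more, the last on 47 peaks. Other coding exons held the most from 0.1 to 1 FPKM, 17.4% (16.8 to 18.1%). By class, the median fold was 5.11 in the 3'UTR and in the 5'UTR, 4.06 in other coding exons, 6.38 in introns and 7.66 in noncoding exons, the value of the commonest step. Intronic peaks were the least supported of these classes, with 49.3% stricter peaks against 72.7% in the 3'UTR.

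**Figure D3:**
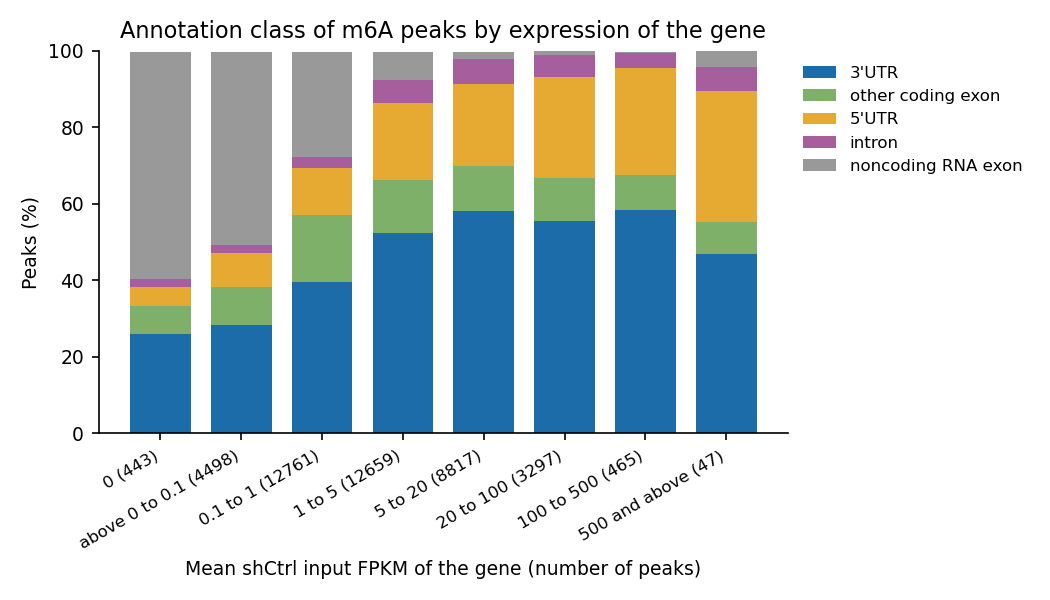
Share of peaks (percent, y axis) in each of the authors' 5 main annotation classes, by mean shCtrl input FPKM of the gene (x axis, with the number of peaks). Noncoding exons shrank from 59.4% of peaks at 0 FPKM to 1.80% at 5 to 20 FPKM, and the 5'UTR share grew from 4.97% to 34.0%.

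Within a coding transcript the 3'UTR was the usual site. Of the 8640 expressed coding genes with a peak, 7624 (88.2%, 87.5 to 88.9%) had one in the 3'UTR, 4210 (48.7%, 47.7 to 49.8%) in the 5'UTR and 2109 (24.4%, 23.5 to 25.3%) in another coding exon. The commonest pattern was the 3'UTR alone, in 38.3% (37.3 to 39.4%), followed by the 5'UTR with the 3'UTR in 29.8% (28.8 to 30.8%). The 5'UTR alone made up 6.44% (5.94 to 6.97%). Of 2305 coding genes with a single peak, 73.1% (71.2 to 74.8%) had it in the 3'UTR and 17.6% (16.1 to 19.2%) in the 5'UTR. Among the 3492 genes with peaks at both ends, the best 3'UTR fold was the higher in 1873, 53.6% (52.0 to 55.3%), and the 5'UTR fold in 1607. The median best folds were 5.77 (5.53 to 6) and 4.84 (4.62 to 5.11).

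Peaks at the 5' end were set against the first transcribed base. Of the 9429 expressed coding genes, 5587 (59.3%) matched a single RefSeq start by symbol, chromosome and strand, and a start counted as under a peak when a peak of the gene covered at least 40 of the first 50 transcribed bases. Of these starts 1781 were under a peak, 31.9% (30.7 to 33.1%). The share was 36.8% (34.9 to 38.7%) for 2530 starts with A, 28.7% (27.0 to 30.6%) for 2373 with G and 24.2% (21.1 to 27.6%) for 666 with C, and the 18 starts with T, of which 7 were under a peak, are not followed further. With peaks of at most 500 bp alone the shares were 12.9% (11.6 to 14.2%) for A, 10.4% (9.20 to 11.7%) for G and 7.81% (6.004 to 10.1%) for C, and the intervals of A and G then overlapped. A-starts were the highest of these 3 in each band up to 500 FPKM: from 20 to 100 FPKM the shares were 42.4% (37.6 to 47.4%) for A, 32.3% (27.9 to 37.1%) for G and 21.5% (15.6 to 28.9%) for C. From 100 to 500 FPKM the intervals overlapped, as did those of A and C from 1 to 5 FPKM, and at 500 FPKM and more only 3 of 28 starts were under a peak. The order was the same in genes whose deposited start lay within 50 bp of the RefSeq start, at 37.6%, 29.6% and 25.7%, an alternative chosen after the data were seen. RefSeq gives 1 start per gene, and the starts used in these cells were not analysed here.

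The start windows printed above belong to these counts. TIMP3, an inhibitor of matrix metalloproteinases at 614, 599 and 600 FPKM, had a peak of 180 bp from the start base onward with a fold of 3.18. MT2A, a metallothionein at 227, 200 and 210 FPKM, had one of 296 bp with a fold of 3.48, TMSB4X, a thymosin related to TMSB10, one of 389 bp with a fold of 5.10, and CTSZ, a lysosomal cathepsin, one of 179 bp with a fold of 5.41. RPS6, RPSA and RPL7A start with C followed by pyrimidines, as mRNAs of the translation machinery commonly do, and had no peak there at 693 to 751, 617 to 708 and 971 to 1033 FPKM. A C at the start did not exclude a peak: RPL41, whose listed gene starts upstream of the RefSeq start, had one of 210 bp with a fold of 3.84, and RPS10 one of 316 bp with a fold of 9.75. The letters GGACT, the best known m6A consensus, were searched on the transcribed strand of the first 50 bases. They were present in 4.94% (4.03 to 6.05%) of starts under a peak, 4.70% (4.07 to 5.42%) of the others and 4.90% of all 22031 starts with a unique symbol in the table, and these intervals overlap. For GGACA the intervals of starts under a peak and of the others overlapped as well. The same held for GGACC, for AAACT and for the letters AGACT. Against all starts in the table, GGACA was less common under a peak, at 3.31% (2.58 to 4.25%) against 4.988% (4.71 to 5.28%). So was AAACT, at 1.57% (1.09 to 2.26%) against 3.44% (3.21 to 3.69%), and both were as uncommon in starts of expressed genes without a peak there, at 3.31% and 1.16%. A match is a description and not a site.

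**Figure D4:**
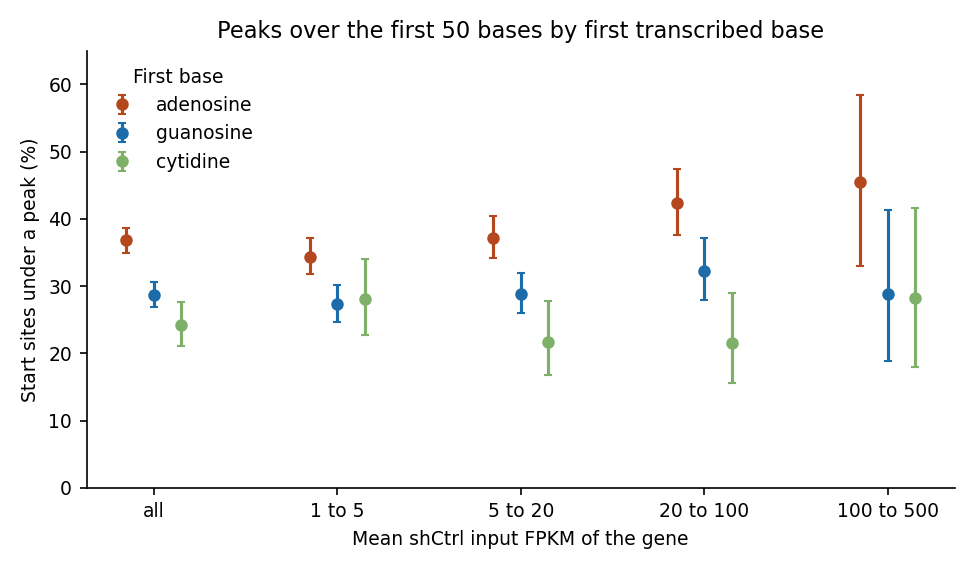
Share of RefSeq starts under a peak (percent, y axis) for genes that start with adenosine, guanosine or cytidine, over all expressed coding genes and by mean shCtrl input FPKM (x axis). Points are shares and bars 95% Wilson intervals; over all genes the shares were 36.8%, 28.7% and 24.2%.

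Gene lists are given by how many of their expressed members had a peak, beside the share over all expressed genes in the same expression bands. That share covers genes of every kind, pseudogenes and noncoding genes included, and was not matched by kind. Among coding genes alone the share was higher, at 92.6% from 1 to 5 FPKM, 92.2% from 5 to 20 FPKM and 89.2% from 20 to 100 FPKM. Whether a list differed from other genes was not tested. All 47 expressed chromatin regulators had a peak (92.4 to 100%, same bands 87.5%), and 46 had a stricter one (same bands 79.7%). Their median was 6 peaks against 2 over all expressed genes, and these numbers were not matched by gene length. CHD4, a nucleosome remodeller at 51.5, 54.8 and 54.3 FPKM, had 11 peaks and CHD3, its paralog, 8. All 28 immediate early and AP-1 family genes had a stricter peak (87.9 to 100%, same bands 79.6%). FOSL1, an AP-1 subunit induced by MAPK signalling, was at 210, 192 and 180 FPKM with a 3'UTR peak (chr11:65892049-65892977) of fold 7.28, and IER3, an early response gene, at 90.4, 87.2 and 85.2 FPKM with a fold of 8.64. All 23 MAPK output and feedback genes had a peak (85.7 to 100%, same bands 86.2%), and 21 a stricter one (same bands 75.9%). CCND1, the cyclin that drives entry into S phase, had 4 peaks of which 1 was stricter, at 201, 211 and 214 FPKM. The 14 SOCS and SMAD feedback inhibitors all had a stricter peak (78.5 to 100%, same bands 80.1%), among them PMEPA1 with a best fold of 4.81 and BAMBI with 11.4, which both dampen TGF-beta signalling. Of 185 expressed ZNF-numbered zinc finger genes 183 had a peak, 98.9% (96.1 to 99.7%, same bands 87.4%), with a median best fold of 10.8 at a median of 2.59 FPKM. Over all expressed genes these were 7.53 and 5.41 FPKM, and the folds were not matched by expression. ZNF593 had a best fold of 8.96 and ZNF622 of 4.68. ZNF768 and ZNF738 were the members without one, and 1 peak of another gene lies inside ZNF768. Of 27 HOX genes 26 had a peak, 96.3% (81.7 to 99.3%, same bands 87.6%), and each of the 26 had a stricter one (same bands 80.2%). HOXB2 had a best fold of 11.3 and HOXB9 of 5.79, and HOXC9 had none of its own but holds 1 of another gene.

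Genes of the m6A machinery had all-peak shares near those of all genes at their level. Of 11 expressed writer genes 10 had a peak, 90.9% (62.3 to 98.4%, same bands 87.9%). All 13 reader genes had one (77.2 to 100%, same bands 86.9%), and so did both erasers (same bands 88.0%). Each of the 13 readers also had a stricter peak, and their interval then lies just above the 77.0% of the same bands. With stricter peaks, coding genes alone had 86.2% from 1 to 5 FPKM, 85.2% from 5 to 20 and 77.3% from 20 to 100. The reader interval (77.2 to 100%) includes these shares. WTAP, the adaptor of the writer complex, was at 4.71, 5.31 and 4.83 FPKM and had 5 peaks with a best fold of 17.3 in the 5'UTR. ZC3H13, a further subunit, had 5, VIRMA, its scaffold, 4, and RBM15, which recruits the complex to RNA, 2 with a best fold of 23. RBM15B, a paralog of RBM15, had 3, and CBLL1, METTL16 and METTL5 had 2 each. METTL3, the catalytic subunit, was at 7.63, 7.79 and 7.50 FPKM with 2 peaks of low fold, 2.70 in the 5'UTR and 1.75. Below the level called expressed, METTL14, the partner of METTL3, was at 0.715, 0.773 and 0.795 FPKM with 5 stricter peaks, and the reader YTHDC2 was at 0.582, 0.929 and 0.610 FPKM with 1. PCIF1 had 2 peaks at 16.4, 14.1 and 13.9 FPKM. ZCCHC4, which methylates ribosomal RNA, was at 1.39, 1.44 and 1.53 FPKM and had no peak. ALKBH5 was at 19.3, 17.8 and 17.6 FPKM and had 3 peaks, of which 1 was stricter, with a best fold of 7.66 in the 5'UTR (chr17:18183078-18184652). FTO, at 1.55, 1.63 and 1.57 FPKM, had 2. Among readers HNRNPA2B1, at 47.1, 55.8 and 49.0 FPKM, and IGF2BP3, at 6.68, 8.78 and 6.48 FPKM, had 7 peaks each. YTHDF2 had 4, YTHDF1, YTHDF3 and YTHDC1 had 3, and FMR1 and IGF2BP2 had 4. HNRNPC had 3 peaks, PRRC2A and IGF2BP1 had 2 with best folds of 42.7 and 47.2, and RBMX and EIF3A had 1.

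Glycolysis and mitotic genes had the lowest all-peak shares among the lists of coding genes. Of 19 glycolysis genes 12 had a peak, 63.2% (41.0 to 80.9%, same bands 82.8%), and 9 a stricter one, 47.4% (same bands 69.7%). GAPDH and ENO1 had none, whereas PKM, pyruvate kinase at 522, 459 and 468 FPKM, had 2 with a best fold of 8.51 and TPI1 had 2. Counting peaks of another gene that lie inside a member, the share was 68.4% (46.0 to 84.6%, same bands 84.8%). Of 28 mitotic spindle and kinetochore genes 20 had a peak, 71.4% (52.9 to 84.7%, same bands 87.1%), or 75% (56.6 to 87.3%, same bands 88.7%) with such peaks counted. A stricter peak was listed for 60.7% (same bands 78.5%). UBE2C, at 81.5, 67.2 and 68.9 FPKM, and CCNB1, the mitotic cyclin at 66.4, 67.3 and 70.4 FPKM, had none, and CDC20, an activator of the anaphase-promoting complex, had 1 peak with a fold of 1.87. KIF20A, a kinesin of cytokinesis, had 1 with 5.47. Nuclear-encoded respiratory chain subunits had a peak in 62 of 75 genes, 82.7% (72.6 to 89.6%, same bands 85.7%), but a stricter one in 42, 56% (44.7 to 66.7%, same bands 74.1%). COX8A and NDUFB7 had none at 324 to 372 and 176 to 203 FPKM, and ATP5F1B and NDUFS5 had 1 each with folds of 2.30 and 2.81. Cytosolic ribosomal proteins had a peak in 68 of 83 genes, 81.9% (72.3 to 88.7%, same bands 78.7%), with a median best fold of 3.40. The ribosomal interval includes the share of all genes in its bands. Mitochondrial ribosomal proteins had a peak in 73 of 78, 93.6% (85.9 to 97.2%, same bands 87.2%), among them MRPL12 with a fold of 6.5 and MRPS34 with 5.83. MRPL53 and MRPS24 had none of their own but hold 2 peaks of another gene each.

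**Figure D5:**
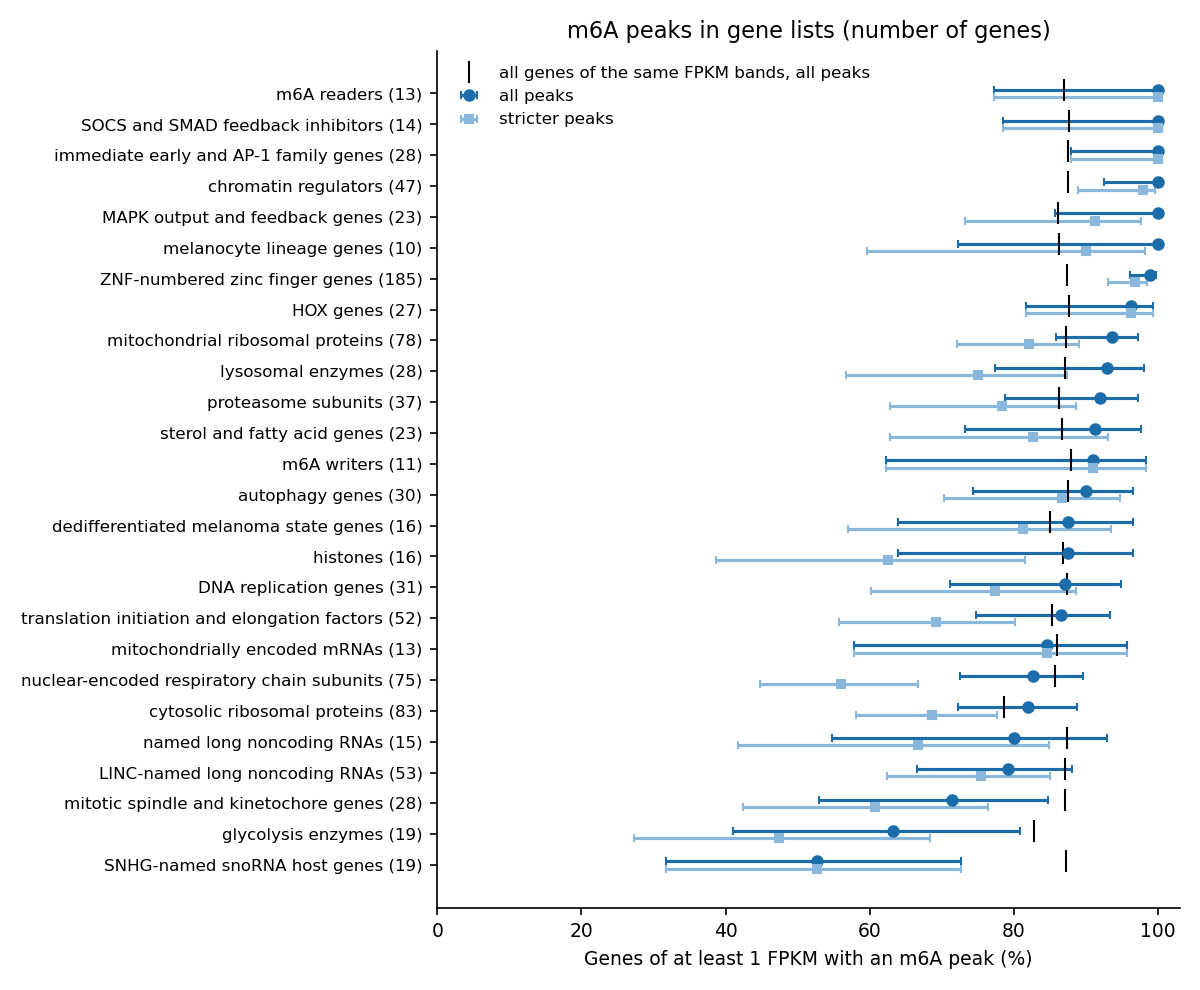
Share of expressed genes with an m6A peak (percent, x axis) in the lists with at least 10 expressed genes (number of genes in brackets), with all peaks and with stricter peaks and their 95% Wilson intervals. Black ticks give the all-peak share over all genes of the same expression bands. By all peaks under their own names, SNHG-named genes are lowest at 52.6%, and chromatin regulators are at 100%. With stricter peaks, glycolysis enzymes are lowest at 47.4%.

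The intervals of the next lists all include the share of all genes in their bands. Proteasome subunits had a peak in 34 of 37 genes, 91.9% (78.7 to 97.2%, same bands 86.3%), and translation factors in 45 of 52, 86.5% (74.7 to 93.3%, same bands 85.3%). For genes of sterol and fatty acid synthesis it was 21 of 23, 91.3% (73.2 to 97.6%, same bands 86.7%), and for DNA replication genes 27 of 31, 87.1% (71.1 to 94.9%, same bands 87.4%). Autophagy genes had a peak in 27 of 30, 90% (74.4 to 96.5%, same bands 87.4%), and lysosomal enzymes in 26 of 28, 92.9% (77.4 to 98.0%, same bands 87.1%). PSMB3 and PSMB6 had none, PSMB4 had 1 with a fold of 1.87 and PSMB7 had 1 with 3.16. EEF2, the translocation factor at 512, 464 and 488 FPKM, had 1 of fold 6.51 (chr19:3976056-3976711), and EIF1 had none at 111, 106 and 109 FPKM. MCM7, a subunit of the replicative helicase, had 1 of fold 199 in the 5'UTR, and FEN1, a flap nuclease, 1 of fold 6.74. TYMS, which makes thymidylate, had none at 61.9, 62.2 and 63.7 FPKM, and CDC45, a helicase cofactor, had none either. Autophagy genes included SQSTM1, the cargo receptor, with 4 peaks at 72.1, 61.3 and 65.5 FPKM, GABARAP with 1, and BECN1 and ATG9A with none. Of the lipid synthesis genes SCD, a fatty acid desaturase, had 2 with a best fold of 1.44, FASN had 1 of fold 3.40 and INSIG1 and CYP51A1 had none, and of the lysosomal genes PSAP and CTSD had 1 each, neither stricter, and PPT1 had none. The histone list had a peak in 14 of 16 genes, 87.5% (64.0 to 96.5%, same bands 86.9%), and a stricter one in 10, 62.5% (same bands 78.6%). H1-10, a linker histone whose expression is not tied to replication, had a fold of 3.19. H4C12 and H4C11 had none, at only 1.88 to 2.46 and 1.53 to 2.10 FPKM in these poly(A)-selected libraries.

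The melanoma lists also had shares near those of all genes at their level. All 10 expressed melanocyte lineage genes had a peak (72.2 to 100%, same bands 86.2%), and 9 a stricter one (same bands 77.0%). SOX10 had 3 peaks, all in the 3'UTR class, with a best fold of 7.01, and GPNMB, a melanosome glycoprotein at 36.1, 39.4 and 39.2 FPKM, had 3. Of 16 expressed genes of the dedifferentiated state 14 had a peak, 87.5% (64.0 to 96.5%, same bands 85.1%). TNC, the matrix protein tenascin C, was at 233, 244 and 230 FPKM with 2 peaks and a best fold of 8.16 in a coding exon. VIM, the intermediate filament vimentin, was at 696, 705 and 709 FPKM with 1 peak of 181 bp, whose fold of 11.5 lies on the steps with a log10 p of -2.44. AXL and FN1, fibronectin at 27.6, 27.8 and 27.2 FPKM, had none.

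For SNHG-named, LINC-named and mitochondrial transcripts the share depended on which gene a peak was named for. SNHG-named genes, whose introns hold snoRNAs, had a peak in 10 of 19, 52.6% (31.7 to 72.7%, same bands 87.2%), and each of the 10 had a stricter one. But 6 of the 9 without a peak hold one named for another gene on the same strand, and with these counted the share was 84.2% (62.4 to 94.5%), against 88.9% over all genes of the same bands counted in the same way. By peaks under their own names, the share was 30% among members of at least 5 FPKM. SNHG29, at 82.6, 75.1 and 82.7 FPKM, had 2 with folds of 23 and 17.2, and SNHG16 had 2. SNHG6 and SNHG19 had none at 40.9 to 42.9 and 25.3 to 28.1 FPKM, although a peak of another gene lies inside SNHG6. LINC-named genes had a peak in 42 of 53 expressed members, 79.2% (66.5 to 88.0%, same bands 87.0%), and in 306 of the 721 below 1 FPKM, 42.4% (38.9 to 46.1%, same bands 36.4%). Of the 11 expressed members without a peak 5 hold one named for another gene, and with these counted the share was 88.7% (77.4 to 94.7%, same bands 89.1%). LINC01819 had 3 and LINC02802 2, and LINC00294 and LINC00623 had none of their own but hold 4 and 3 of another gene. Of 15 other named lncRNAs 12 had a peak, 80% (54.8 to 93.0%, same bands 87.4%). NORAD, which binds PUMILIO proteins, had 2 with a best fold of 9.18, GAS5 1 of 1.68, and the polymerase III transcripts RN7SK and RMRP had none, though both lack a poly(A) tail. All 13 mitochondrially encoded mRNAs were expressed, and 11 had a peak under their own name, 84.6% (57.8 to 95.7%, same bands 85.9%). MT-CO3 and MT-ND4 had none, but a peak named for the neighbouring MT-ATP6 and one named for MT-ND4L lie inside them. These peaks have the full span of MT-CO3 and MT-ND4, and that of MT-CO1 has the full span of its gene. They thus give no position within a gene. MT-ATP6 ends at 9207, where the peak named for it starts. The fold of MT-ND2, at 4470 to 5511, was 21.5, and that of MT-ND6 on the other strand, at 14149 to 14673, was 25.6, against 4.50 for MT-CO1, the highest-expressed at 110, 126 and 132 FPKM, and 3.29 for the peak named for MT-ATP6.

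Receptor and marker lists had few expressed members. Of 46 olfactory receptors 1 was expressed, OR2W3, with 1 peak, and of the other 45 7 had a peak, 15.6% (7.75 to 28.8%, same bands 27.0%). The expressed markers of other cell types, KRT10, LUM, KDR and CD68, had 2, 1, 1 and 5 peaks. A further 907 genes with 1168 peaks had no entry in the expression table, and their median fold was 7.13. Peaks of genes below 0.1 FPKM made up 11.2% of the list, and those of expressed genes 57.1%.

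In control A375 cells, most expressed genes carried at least 1 m6A peak, and the share was lower among silent and weakly expressed genes and among the most highly expressed. With 10 bands of equal size from 1 FPKM up, it was 83.1% in the lowest, 82.5% in the highest and 86.6 to 89.5% between them. Among genes above 0 FPKM, fold enrichment fell and peak scores grew stronger as expression rose. The 3'UTR was the commonest class of peak and held 46.2% of all peaks and 54.9% of the peaks of expressed genes. The 5'UTR share grew with expression. Chromatin regulators, early response genes and zinc finger genes nearly all had a peak, with intervals above the 87.4 to 87.5% of all genes in their bands. Coding genes alone had higher shares, 92.6% from 1 to 5 FPKM and 92.2% from 5 to 20 FPKM. The early response interval (87.9 to 100%) includes both of these, and the chromatin interval (92.4 to 100%) includes the first. The zinc finger interval (96.1 to 99.7%) lies above both. With peaks of other genes inside counted too, the early response interval also included the 89.2% of all genes in its bands. Counted in that way, mitochondrial ribosomal proteins had 97.4% (91.1 to 99.3%), above the 88.5% of genes of every kind in their bands. Their interval includes the 92.2% of coding genes from 5 to 20 FPKM. It lies above the 89.2% of coding genes from 20 to 100 FPKM, both shares without peaks of other genes. By contrast, glycolysis and mitotic genes had lower shares than all genes at their level, which was not tested. The share of SNHG-named genes varied with which gene a peak was named for and with the expression floor. Starts with A lay under a peak more often than starts with G or C, though with short peaks alone the intervals of A and G overlapped.

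Several limits apply. The peak list has no values per library, so no share or fold could be checked between replicates, and the 3 inputs can only show how stable expression was. A missing peak is not proof of missing m6A, because read depth and coverage are unknown. Folds of weakly expressed genes often fell on fixed steps. Spans include introns, a peak is assigned to 1 gene even where genes overlap, and 13.7% of expressed genes without a peak contain one named for another gene on the same strand. The antibody does not separate m6A from m6Am. Gene lists were not compared by any test, and causes were not tested.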

How the data were processed

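Per the labels, poly(A) RNA of shCtrl A375 cells was sequenced as 3 input and 3 IP libraries. The authors deposited expression as FPKM per input library. The authors deposited for each peak a fold enrichment, the ratio of IP over input. The log10 p and log10 FDR that the authors deposited with it were used as a score. The peak caller, the aligner and any pooling of libraries are not given in the sources used here. The submitters' processing notes list mm10, but 99.9% of 21757 entries with a RefSeq symbol overlapped that gene in GRCh38.p14, so coordinates are given as GRCh38. Peak starts count from 0 in the deposited list and were changed to count from 1. The mean of the 3 inputs set the expression bands. The authors' columns of fold changes and p-values between groups, and their table of differential peaks, hold their own comparison and were not used. Gene kinds came from RefSeq by symbol, which matched 73.3% of entries. Members and lists were chosen with earlier results of these data known. Entries described as pseudogenes were left out of lists matched by name. The text names, at 1 FPKM or more, the 10 genes with the most peaks, the 10 with the highest fold among stricter peaks, the 10 highest-expressed coding genes with and without a peak, the 2 highest-expressed members with and without a peak of each of 32 lists, the m6A genes, GAPDH and ACTB. Some genes that this rule picks are not reported here. Alternatives were stricter peaks, spans up to 10 kb, floors of 0.5 and 5 FPKM, other joins and bands, and each library left out. Shares by expression band and the search for the fold step were checked on simulated data. Tables and correlations were made in pandas 2.3.3 and numpy 2.4.6 under Python 3.11.15, intervals in scipy 1.17.1 and plots in matplotlib 3.10.9.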

Additional observations from a re-analysis of the deposited data

How the results depend on the processing

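Across the settings, 209 values were compared with the main value, of which 147 stayed within its 95% interval and 62 fell outside it. Of these 0 changed sign, which only rho could do, as the other values cannot be negative. The fold steps, shared bases, peaks inside other genes, coding genes alone, pseudogenes and start-site settings were chosen after the data were seen. No paired analysis was possible because the peak list holds no values per library and no test was made. Exon-block spans were not run because the file gives no blocks, nor was a motif search in peaks because no genome was given.

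Stricter peaks moved the share of expressed genes with a peak from 87.2% to 79.4%. By rising expression band the shares became 5.93%, 17.2%, 58.9%, 80.3%, 81.9%, 74.3%, 63.8% and 45.5%. Peaks per gene became 2.07 instead of 2.54 and the median fold 6.06 instead of 5.25. The 3'UTR share became 49.1% instead of 46.2%, noncoding exons 16.7% instead of 18.1% and introns 3.41% instead of 4.73%. List shares became 68.7% for cytosolic ribosomal proteins, 82.1% for mitochondrial ones, 56% for respiratory chain subunits, 62.5% for histones, 78.4% for proteasome subunits, 69.2% for translation factors and 75% for lysosomal enzymes. Starts under a peak became 30.4% for A, 23.4% for G and 19.4% for C. The lower shares and counts follow by construction from removing peaks; the cause of the moves in class shares and median fold was not tested.

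Spans up to 10 kb gave 84.4% of expressed genes, 2.40 peaks per gene and a median fold of 5.11, with 48.1% in the 3'UTR, 15.0% in the 5'UTR, 12.997% in other coding exons and 5.20% in introns. With spans up to 500 bp, starts under a peak were 12.9% for A, 10.4% for G and 7.81% for C, in the same order.

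Expression floors of 0.5 FPKM and of none gave 85.7% and 57.0%. A floor of 5 FPKM gave 100% for histones and for m6A writers and 30% for SNHG-named genes. Peaks of genes of at least 1 FPKM alone had a median fold of 4.11, 54.9% in the 3'UTR, 21.5% in the 5'UTR, 12.6% in other coding exons, 4.43% in noncoding exons and 6.22% in introns.

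Without peaks on the fold steps the share was 83.0%, without peaks sharing a base with those of another gene 86.0%, in coding genes alone 91.6%, and with peaks of other genes lying inside counted 89.0%. With the latter, list shares became 97.4% for mitochondrial ribosomal proteins, 100% for HOX genes and mitochondrially encoded mRNAs, 84.2% for SNHG-named and 88.7% for LINC-named genes. With pseudogenes included, translation factors had 73.8%. With 10 equal bands the highest minus lowest share was 6.97 instead of 20.8, as the top band then starts at 34.8 FPKM. With the largest fold per gene, rho was -0.20 instead of -0.22; the cause was not tested.

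Leaving out each input library moved the share at 0 FPKM to 11.8 to 12.5% and above 0 to 0.1 FPKM to 30.9 to 31.1%, because genes then change bands.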

Other observations

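MicroRNA hairpins lay inside some peaks. Of 1558 RefSeq hairpins, 156 lay within a peak span on the same strand, 29 within a peak of at most 2000 bp, and 10 had a peak whose span equalled that of the hairpin. MIR671 in CHPF2 had one of 118 bp with a fold of 5.74. MIR3652 in HSP90B1, a chaperone of the endoplasmic reticulum, had one of 131 bp with a fold of 4.28. MIR1182 in FAM89A had one of 97 bp with a fold of 3.64. Each of these hairpins also lay inside a longer peak of the same gene with a higher fold. The longer peaks had 4997 bp and 10.4 in CHPF2, 1525 bp and 5.68 in HSP90B1, and 8864 bp and 8.21 in FAM89A. A mark of the hairpin and one of the host transcript cannot be told apart here. These genes were chosen after their values were seen.

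Some peaks of neighbouring genes shared runs. In the PCDHA cluster of protocadherins, 13 genes held 62 peaks, of which 58 lay in runs shared with another gene, although the highest mean was 1.69 FPKM. In the PCDHG cluster 22 genes held 91 peaks, of which 22 lay in such runs. Of all peaks with a gene, 1200 (2.72%) lay in them. By chromosome, the share of expressed coding genes with a peak ran from 87.8% on X (84.0 to 90.9%), with 87.9% on chromosomes 4 and 6, to 93.9% on chromosome 19 (91.8 to 95.4%) and 96.3% on chromosome 21 (89.5 to 98.7%).

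Among long noncoding RNAs, MALAT1, at 6.63, 7.20 and 4.92 FPKM in inputs 1, 2 and 3, had 5 peaks. NEAT1, the scaffold of paraspeckles, was at 3.37, 3.90 and 3.43 FPKM with 7 peaks and a best fold of 243. TUG1 was at 3.08, 4.22 and 3.12 FPKM with 10 peaks and a best fold of 66.4. These genes were also chosen after their values were seen.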
